A study of Mus musculus with 36 samples.

Results

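The lot 6 female line is 1 of 10 lines of mouse astrocytes that lack Nf1 (Nf1-/-) and carry a dominant-negative form of p53 (DNp53). It was profiled in 3 of the 36 libraries of the series and is set here against the lot 7, lot 8, lot 11 and lot 12 female lines, which had 15 libraries and were given equal weight. All of these lines share the Nf1-/- DNp53 genotype, so none of them is a normal astrocyte control. Per the series description, the lots come from separate litters, with 1 female and 1 male line each. A gene was taken as outside the range when all 3 lot 6 female libraries lay above the highest, or below the lowest, of the 15 other female libraries. Of 12173 genes tested, 1119 met this rule, which is 9.19%. The line and its genes were chosen by the levels in these same 18 female libraries, so the difference from the other female lines is described below and no count of it is a test. Each litter and sex is represented by 1 line, and it is not stated whether replicates are separate cultures, so SE measures the spread between libraries and not between animals. The cells had been grown in DMEM/F12 medium with serum.

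Nf1 encodes neurofibromin, which switches off Ras by speeding its hydrolysis of GTP, and p53 is the transcription factor that stops or kills damaged cells. Astrocytes without both functions are transformed cells used as a model of malignant glioma, and the series addresses NF-κB and STAT3 signalling in relation to sex. NF-κB is held inactive by IκB proteins until cytokine receptors trigger their loss, while STAT3 is activated through receptors that share the gp130 chain and induces its own inhibitor Socs3. Both pathways, and the interferon pathway, are known for their part in reactive astrocytes.

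Levels are given as CPM, the counts of a gene relative to the scaled library total, after TMM scaling, which adjusts library totals for composition, and BRB-seq counts the 3' ends of polyadenylated transcripts. The lot 6 female libraries held 7562901, 6278447 and 6552777 counts, against 4358098 to 7445520 counts in the other female libraries. Nf1 had 1.28, 0.288 and 0.428 CPM in the lot 6 female line, against a lowest, median and highest value of 0.238, 2.05 and 4.00 CPM in the other female lines. These Nf1 levels overlapped and are near the 3 counts taken as the detection floor. Trp53, which the dominant-negative design does not remove, had 177, 175 and 187 CPM in the lot 6 female line, against 158, 233 and 373 CPM as lowest, median and highest in the others. Ribosomal protein transcripts made up 17.5 to 19.8% of the counts in the lot 6 female libraries, against 18.8 to 26.4% in the other female libraries. The replicate 4 libraries of lots 7, 8 and 11 stood apart in mitochondrial mRNA, with 0.315 to 0.349% of counts in the 3 female ones, against 0.520 to 0.770% in the other 15 female libraries, and lot 6 has no replicate 4. Without all replicate 4 libraries, 727 genes lay above the range defined above and 526 below it.

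The label astrocyte was checked against marker genes. Of 15 astrocyte markers, 8 exceeded 1 CPM on average in the lot 6 female line and 7 did so in the other female lines. Their summed level was 105 to 143 CPM in the lot 6 female libraries, against 71.9 to 242 CPM in the other female libraries. Gfap, the astrocyte filament protein, had 0 counts in the lot 6 female line and at most 0.869 CPM in any other female library. Gja1, which encodes the gap junction protein connexin 43, supplied the largest part of this sum, with 83.9, 77.0 and 65.8 CPM in the lot 6 female line against 33.7, 134 and 206 CPM in the others. Nes, the intermediate filament of neural progenitors, had 44.6, 66.5 and 43.6 CPM in the lot 6 female line, against 59.6, 90.6 and 135 CPM in the others. Thus the defining astrocyte marker was not detected in the lot 6 female line and was near 0 in the rest, while progenitor and some glial transcripts were present throughout.

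Markers of other cell types were summed in the same way. Schwann and neural crest markers summed to 130.2 to 137 CPM in the lot 6 female libraries, wholly above the 45.7 to 121 CPM of the others. Nearly all of this was Pmp22, a peripheral myelin protein: without it the sums were 2.31 to 2.71 CPM in the lot 6 female libraries and 0.238 to 3.67 CPM in the others, and Sox10, Foxd3 and Cdh19 were at 0 in every female library. Neuron markers summed to 12.1 to 20.2 CPM in the lot 6 female libraries, against 8.90 to 81.3 CPM, and oligodendrocyte markers to 8.28 to 15.7 CPM, against 7.63 to 26.2 CPM. Microglia and macrophage markers summed to 3.21 to 4.29 CPM in the lot 6 female libraries, against 2.34 to 13.3 CPM in the others, with 8 of 12 markers at 0 in lot 6, among them Itgam, Csf1r, Aif1 and P2ry12. Endothelial markers summed to 1.43 to 4.32 CPM in the lot 6 female libraries, against 5.45 to 19.9 CPM in the others. Without Flt1 the sums overlapped, at 0.1283 to 2.74 CPM against 0.1485 to 3.14 CPM. Pecam1 was at 0 in the lot 6 female line, and Cldn5 and Tek were at 0 in every female library. Fibroblast and meningeal markers summed to 135 to 211 CPM in the lot 6 female line, against 335 to 2304 CPM in the others. Without Crabp1 the sums overlapped, at 52.1 to 95.9 CPM in the lot 6 female libraries against 55.6 to 585 CPM in the others. Lum, Fap and Slc6a13 were at 0 in every female library. The pericyte and smooth muscle sum was nearly all Acta2: without it, the lot 6 female libraries held 19.3 to 22.2 CPM, against 5.01 to 59.9 CPM in the others, and Abcc9, Anpep and Kcnj8 were at 0 in every female library.

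The lot 6 female line stood outside the range of the other 4 female lines more often than any of those lines did by the same rule. Of the genes tested, 676 lay above the range (5.55%) and 443 below it (3.64%). For the other female lines taken in turn, 190 genes lay outside for lot 7 (1.561%), 402 for lot 8 (3.302%), 249 for the lot 11 line (2.046%) and 297 for the lot 12 line (2.44%). These 5 comparisons share libraries and are descriptions. Lot 6 and lot 12 had 3 libraries each and the others 4, and a line with fewer libraries passes the rule more easily.

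**Figure D1:**
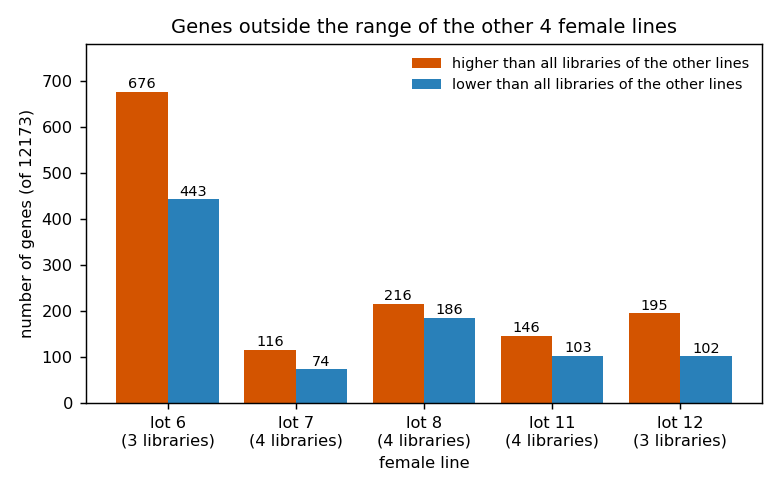
Number of genes whose libraries all lay above (orange) or below (blue) every library of the other 4 female lines, for each female line in turn, out of 12173 genes tested. The lot 6 female line had 676 and 443, while the other 4 lines had 74 to 216 in a direction.

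Distances were modest for most of these genes and large for some. The log2 gap between the lot 6 line mean and the nearest other line mean had a median of 0.73 among genes above the range and -0.66 among those below it. A gap of at least 2-fold was reached by 259 genes above (2.13%) and 141 below (1.16%). Just inside the rule lay 2730 genes whose lot 6 line mean was above all 4 other line means while single libraries overlapped, with a median gap of 0.22, and 2624 genes on the lower side with a median of -0.21. Only 4 genes above the range had no count in any of the 15 other female libraries, and 2 below it had none in lot 6. EdgeR's quasi-likelihood fit with an adjusted threshold of 0.05 placed 1720 genes higher in the lot 6 female line (14.1%) and 1497 lower (12.3%), which describes the libraries by which the line was chosen. With the libraries of each line summed, so that 1 line stands against 4, edgeR placed 2 genes higher, Epas1 and Tmem35a, and 0 lower, with 1453 at an unadjusted p under 0.05. Protein-coding genes were outside the range in 9.424% of cases, long noncoding genes in 6.346% and pseudogenes in 7.168%.

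Transcription factors that pattern the neural tube and brain were among the genes furthest above the range. Otx2, the homeobox factor of the forebrain and midbrain, had 23.3, 28.8 and 19 CPM in the lot 6 female line, against 0, 0.182 and 1.71 CPM as the lowest, median and highest of the other female libraries. Of the 5 female lines, only that of lot 6 exceeded 2 CPM of Otx2 in any library, and the log2 fold change was 5.94 ± 0.46 (± SE). Otx2 lies at chromosome 14, 48657677 to 48673819, in the GRCm38 build. The zinc finger factors Zic1 and Zic4, which lie next to each other on chromosome 9 and act together in cerebellar development, were also above the range. Zic4 had 40.1, 42.3 and 35.4 CPM in the lot 6 female line, and line means of 3.76, 0.0596, 0.209 and 0.393 CPM in the lot 7, 8, 11 and 12 female lines. Zic1 had 11.8, 16.6 and 11.3 CPM in the lot 6 female line, against 0, 0.218 and 4.10 CPM in the others, a log2 fold change of 4.82 ± 0.56.

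A list of 23 such patterning factors was put together after these values had been seen. Of its 18 tested members, 9 lay above the range in the lot 6 female line and 2 below it, against 5.55% and 3.64% of all genes. The list median log2 fold change was 2.60, against 0.02 over all genes. Because the members were picked with their values known, these counts describe the choice and are no test. Besides Otx2, Zic1 and Zic4, En2 and Pax3, factors of the midbrain-hindbrain border and the dorsal neural tube, were above the range, as were Irx1, Irx2, Lhx2 and Six3. Six3, a factor of the anterior forebrain and eye, had 44.0, 44.1 and 52.3 CPM in the lot 6 female line, against 3.36, 24.2 and 30.2 CPM in the others. The nuclear receptors Nr2f1 and Nr2f2 (COUP-TFI and COUP-TFII), which shape regional identity in the cortex and elsewhere, were the 2 members below the range. Nr2f1 had 0.641, 1.58 and 0.714 CPM in the lot 6 female line, against 5.45, 18.6 and 41.4 CPM in the others, a log2 fold change of -4.36 ± 0.35. Genes for anterior, dorsal and hindbrain regions were thus above the range side by side, and Pax7 and Lmx1a had no count in any female library.

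Epas1, the hypoxia-inducible factor HIF-2α, had the largest gap of all named genes. It had 50.3, 61.9 and 45.0 CPM in the lot 6 female line, against 0, 0.334 and 1.09 CPM as lowest, median and highest in the other female lines, a log2 fold change of 6.74 ± 0.38. The other line means averaged 0.493 ± 0.168 CPM (SD, n = 4 lines), and the gene lies at chromosome 17, 86753700 to 86833410. Its relative Hif1a, whose protein is mainly set by degradation, overlapped fully, with 8.85, 9.79 and 10.7 CPM in the lot 6 female line and 5.34, 9.77 and 15.7 CPM in the others. Adm encodes adrenomedullin, a vasodilator peptide known as a hypoxia-induced gene. It had 142, 158 and 166 CPM in the lot 6 female line, against 1.96, 4.86 and 13.4 CPM in the others, a log2 fold change of 4.79 ± 0.17. The glycolysis list did not share this direction. Of its 19 tested members, 2 lay above the range and 1 below, against 5.55% and 3.64% of all genes. The list median was -0.03, or 0.03 when scaled by library totals alone. Those above were Aldoc and Ldhb. Hk2, which commits glucose to the pathway, was below, with 14.4, 13.5 and 8.14 CPM in the lot 6 female line against 17.7, 27.3 and 39.9 CPM in the others.

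Several genes of cell contact and guidance were near 0 in most of the other female libraries. Cdh4, the adhesion protein R-cadherin, gave 399 counts in the 3 lot 6 female libraries together and 2 counts in the 15 others. In CPM this was 18.2, 18 and 18.9 in the lot 6 female line, with 14 of the other female libraries at 0. Sema3e, a secreted guidance cue for axons and vessels, had 60.5, 71.6 and 68.4 CPM in the lot 6 female line, against 0, 0.445 and 4.21 CPM in the others, a log2 fold change of 6.60 ± 0.37. Itga1, the collagen-binding integrin α1, had 39.4, 58.0 and 39.4 CPM in the lot 6 female line, against 0, 2.08 and 11.7 CPM in the others. Its partner Itgb1 was above the range by less, with 592, 766 and 603 CPM in the lot 6 female line, against 227, 364 and 504 CPM. Cldn19, a tight junction claudin, and Tmem35a, a chaperone of nicotinic acetylcholine receptors, had log2 fold changes of 5.49 ± 0.53 and 6.26 ± 0.66, the second of which was 7.26 without lot 12 female replicate 3. Cercam and Pcp4l1 were also among the 15 genes furthest above the range, at 4.02 ± 0.48 and 5.79 ± 0.51.

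Ezr, which links the membrane to actin, had 226, 246 and 199 CPM in the lot 6 female line, against 3.92, 16.9 and 67.9 CPM in the other female lines, a log2 fold change of 3.58 ± 0.18. Of 16 ERM linker and membrane genes, 4 lay above the range and 1 below it, against 5.55% and 3.64% of all genes. Those above included Cav1 and Cav2 of caveolae and the podoplanin gene Pdpn, and Anxa2 was below. Podoplanin had 294, 331 and 316 CPM in the lot 6 female line, against 109.6, 134 and 198 CPM in the others. In the matrix, Fmod, a collagen-binding proteoglycan, had 272, 272 and 284 CPM in the lot 6 female line, against 2.15, 4.69 and 38.4 CPM. Col6a1 and Col6a2, which encode chains of the beaded-filament collagen VI, and Col18a1 and Col4a5 of basement membranes were also above the range. Col18a1, the source of endostatin, had 144, 136 and 104 CPM in the lot 6 female line, against 2.62, 25.6 and 35.7 CPM. Collagen I did not follow: Col1a1 had 18, 25.2 and 17.1 CPM in the lot 6 female line, inside the 5.48 to 274 CPM of the others.

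**Figure D2:**
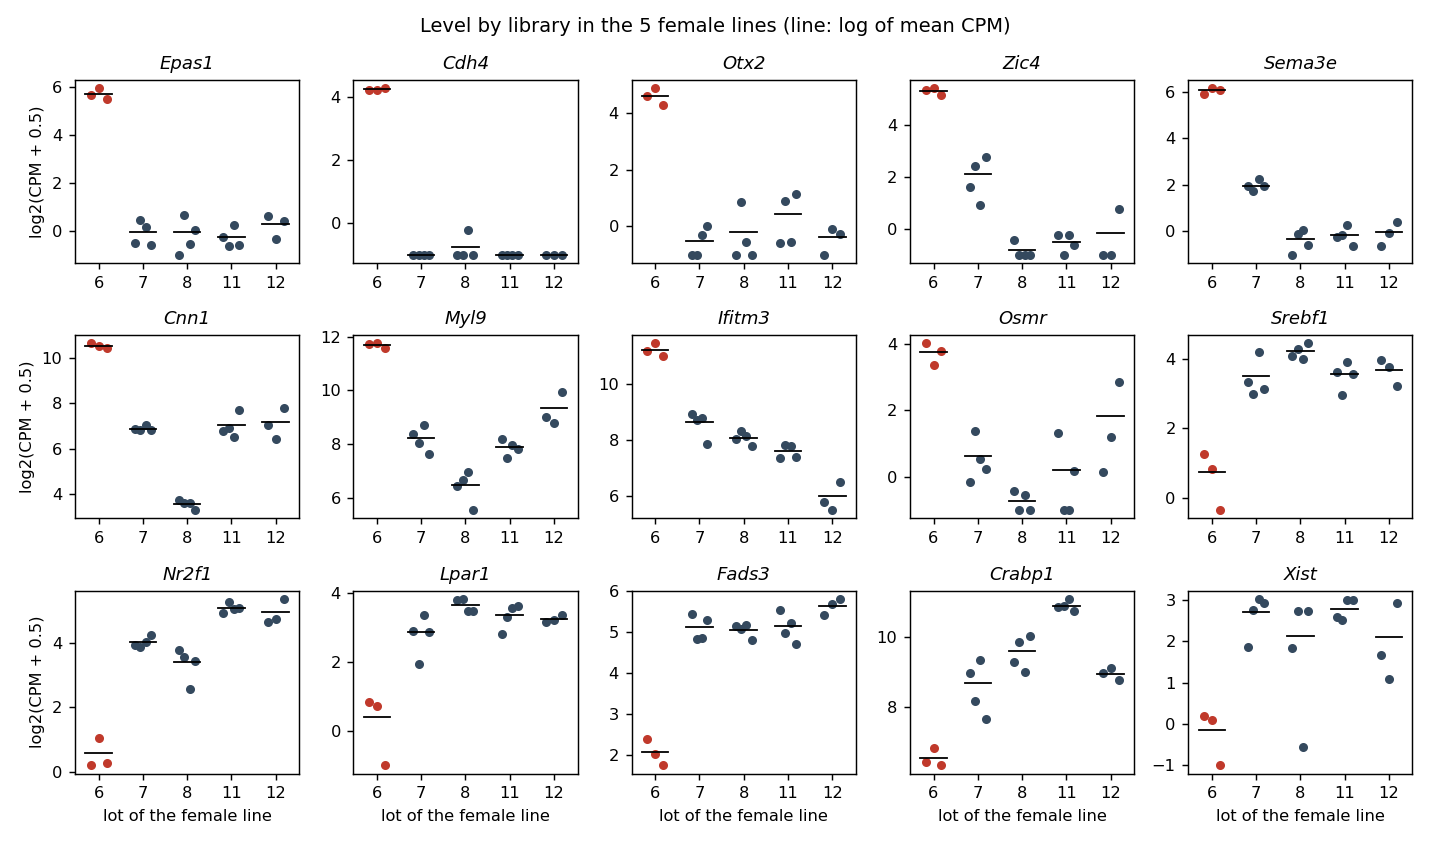
Levels of 15 genes in each library of the 5 female lines, as log2 of CPM plus 0.5, with lot 6 in red at the left, the other lines in dark blue, and a black line at the log of the mean CPM of each line. The 3 lot 6 female libraries lie apart from all others for 14 of the genes and overlap another line for Xist.

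Contractile genes were above the range in the lot 6 female line at both high and low abundance. Of 20 tested members of the contractile list, 8 lay above the range and 0 below it, against 5.55% and 3.64% of all genes. The list median log2 fold change was 0.67. Cnn1, calponin 1 of smooth muscle, had 1581, 1448 and 1370.0 CPM in the lot 6 female line, against 9.31, 111 and 219.7 CPM as lowest, median and highest in the other female lines, a log2 fold change of 4.37 ± 0.27. Myl9, a myosin regulatory light chain, had 3368, 3433 and 3030.0 CPM in the lot 6 female line, against 46.4, 251 and 986 CPM in the others, a log2 fold change of 3.69 ± 0.18. Both genes lay well above the highest of the other female libraries. Across the 4 other female lines, the line means averaged 101 ± 60.9 CPM (SD, n = 4 lines) for Cnn1 and 319 ± 237 CPM (SD, n = 4 lines) for Myl9. Because these are bulk samples, more cells with contractile transcripts and more RNA per cell cannot be told apart.

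Acta2, smooth muscle α-actin, was among the most abundant transcripts. It had 15910.0, 14510.0 and 13970.0 CPM in the lot 6 female line, against 1473, 5275 and 9306 CPM in the others, a log2 fold change of 1.61 ± 0.11. Tagln, which encodes the actin-binding protein SM22, only just cleared the range, with 2379, 2215 and 2200.0 CPM in the lot 6 female line, against 469.8, 1018 and 2129 CPM. The actin nucleator Lmod1 had a log2 fold change of 3.56 ± 0.30, while Cnn2, Cnn3 and Tpm4 differed by 0.52 ± 0.11, 0.75 ± 0.08 and 0.44 ± 0.07. Snai2, a repressor of epithelial genes, was above the range with 42.1, 47.5 and 46.6 CPM in the lot 6 female line, against 1.23, 6.53 and 35.9 CPM, while its relative Snai1 was below it with 1.03, 1.01 and 0.428 CPM, against 3.14, 6.00 and 11.8 CPM.

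Serum response factor binds a motif called the CArG box in many contractile promoters. The RefSeq upstream sequences of the GRCm38.p6 build were searched on both strands, over the 250 bases before the start of each gene. Of the 7 contractile genes above the range that had an entry, 2 held the motif, Myl9 and Cnn2, against 1.25% of 11561 windows of tested genes. Tagln is the eighth gene. The Myl9 window, at chr2:156775214-156775463 on the plus strand, is shown because it belongs to the most abundant gene of the group with a match, in capitals, 161 bases before the start.
Myl9: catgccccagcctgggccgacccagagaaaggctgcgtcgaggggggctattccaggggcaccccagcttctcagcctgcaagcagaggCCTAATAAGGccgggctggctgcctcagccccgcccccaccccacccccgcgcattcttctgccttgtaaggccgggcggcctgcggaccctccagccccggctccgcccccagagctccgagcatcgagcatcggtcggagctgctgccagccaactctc
The Cnn2 window, at chr10:79988350-79988599 on the plus strand, held its match 56 bases before the start.
Cnn2: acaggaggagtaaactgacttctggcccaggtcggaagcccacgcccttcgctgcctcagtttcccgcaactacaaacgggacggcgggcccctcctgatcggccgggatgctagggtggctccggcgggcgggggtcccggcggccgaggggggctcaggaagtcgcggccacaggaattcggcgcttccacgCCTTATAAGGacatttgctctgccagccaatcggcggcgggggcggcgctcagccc
The match is a description of the letters, and the gene with the largest contractile difference, Cnn1, held none in this window.

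Interferon-stimulated genes formed one of the groups with high levels in the lot 6 female line. Of 22 tested members, 5 lay above the range and 0 below it, against 5.55% and 3.64% of all genes. The list median log2 fold change was 1.98. Ifitm3, a membrane protein that blocks virus entry, was by far the most abundant, with 2314, 2754 and 2007 CPM in the lot 6 female line, against 45.0, 223 and 490.1 CPM in the others. The other line means averaged 230.4 ± 138 CPM (SD, n = 4 lines). The log2 fold change was 3.63 ± 0.16, and the lowest lot 6 female library exceeded the highest other female library several-fold. Ifit3, which binds to signalling proteins of the antiviral response, had 16.0, 30.7 and 15.7 CPM in the lot 6 female line, against 0, 1.05 and 14.1 CPM. Isg15, a ubiquitin-like modifier, had 5.77, 13.5 and 2.86 CPM in the lot 6 female line, against 0, 0.149 and 2.73 CPM. Isg15 and Ifit3 were thus low in all lines and nearly touched the range, and the second lot 6 female library was the highest for both. Usp18, which removes Isg15 from proteins, overlapped, with 6.16, 14.8 and 2.14 CPM in the lot 6 female line, against 0, 0.155 and 5.55 CPM.

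Small membrane proteins induced by interferon formed a list made after the values had been seen. Of its 7 tested members, 6 were above the range, against 5.55% of all genes, a count that follows in part from this choice. Ifitm1 had 37.8, 56.9 and 37.6 CPM in the lot 6 female line, against 0, 0.238 and 7.96 CPM in the others, a log2 fold change of 6.48 ± 0.45. Ifitm2 had 45.9, 59.6 and 41.9 CPM, against 11.1, 21.8 and 37.6 CPM, a log2 fold change of 1.14 ± 0.18. Ifitm1, Ifitm2 and Ifitm3 lie near each other on chromosome 7 and are close relatives, so reads may be split between them. Among the Ifi27 relatives, Ifi27l2a had 28.1, 29.2 and 21.4 CPM in the lot 6 female line, against 0, 0.545 and 3.59 CPM, and Ifi27 had 70.4, 135 and 64.3 CPM, against 6.01, 13.5 and 53.3 CPM. Ifi27l2b gave 70 counts in the 3 lot 6 female libraries and 2 in the 15 others. The member inside the range was Ifitm7, at 0, 0.144 and 0 CPM in the lot 6 female line.

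The interferon-stimulated response element is bound by interferon regulatory factors and drives many interferon-stimulated genes. A core of it, GAAA then any 2 bases then GAAA, was searched on both strands with overlaps allowed, over the same 250 upstream bases. Of the 9 interferon-response or small membrane protein genes above the range, 5 had an entry and 3 of these held it: Isg15, Ifit3 and Ifitm2. Ifi27, Rtp4, Ifi27l2a and Ifi27l2b are the others. Over 11561 windows of tested genes, 2.46% held a match. The windows with matches are shown with the motif in capitals, beside that of Ifitm3, the most abundant of the group, whose window held none. They lie at chr4:156200819-156201068 on the minus strand, chr19:34583279-34583528 on the plus strand, chr7:140955962-140956211 on the minus strand and chr7:141010745-141010994 on the minus strand.
Isg15: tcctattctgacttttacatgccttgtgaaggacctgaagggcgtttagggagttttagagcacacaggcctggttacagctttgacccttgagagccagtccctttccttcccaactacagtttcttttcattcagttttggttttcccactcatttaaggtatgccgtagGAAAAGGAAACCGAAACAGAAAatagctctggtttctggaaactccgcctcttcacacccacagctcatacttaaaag
Ifit3: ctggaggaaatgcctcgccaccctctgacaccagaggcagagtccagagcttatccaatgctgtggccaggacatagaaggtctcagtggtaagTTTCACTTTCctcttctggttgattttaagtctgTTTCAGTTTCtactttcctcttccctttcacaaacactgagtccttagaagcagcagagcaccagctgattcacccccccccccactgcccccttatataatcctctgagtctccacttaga
Ifitm2: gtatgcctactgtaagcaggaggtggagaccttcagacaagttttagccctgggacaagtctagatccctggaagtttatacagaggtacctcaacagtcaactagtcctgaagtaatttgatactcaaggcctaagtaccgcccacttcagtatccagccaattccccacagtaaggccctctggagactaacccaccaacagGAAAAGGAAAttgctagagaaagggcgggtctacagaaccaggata
Ifitm3: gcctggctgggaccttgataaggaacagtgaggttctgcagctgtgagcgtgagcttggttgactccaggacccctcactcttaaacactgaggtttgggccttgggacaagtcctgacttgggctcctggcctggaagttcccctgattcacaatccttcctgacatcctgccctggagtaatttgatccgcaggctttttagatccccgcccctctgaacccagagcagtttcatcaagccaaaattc
In Isg15, 3 matches overlapped in 1 run, and Ifit3 held 2 separate matches on the opposite strand. The letters say nothing of binding in these cells.

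The IL-6 family and STAT3 list had 4 of 16 tested members above the range and 0 below, against 5.55% and 3.64% of all genes. The list had a median log2 fold change of 0.95. Lifr and Osmr, which encode receptor chains for leukaemia inhibitory factor and oncostatin M, led it. Osmr had 15.5, 9.79 and 13.1 CPM in the lot 6 female line, against 0, 0.598 and 6.73 CPM in the others, a log2 fold change of 4.17 ± 0.65. Lifr had 5.77, 5.04 and 6.57 CPM, against 0, 0.176 and 2.1 CPM. Their shared chain gp130, encoded by Il6st, overlapped slightly: it had 62.1, 52.1 and 56.0 CPM in the lot 6 female line, against 10.4, 22.5 and 64.5 CPM. Stat3 itself had 18.1, 25.3 and 17.6 CPM in the lot 6 female line, against 4.91, 8.34 and 16.1 CPM, and its feedback inhibitor Socs3 had 8.08, 9.94 and 10.4 CPM, against 1.63, 3.13 and 6.55 CPM. Osmr, Lifr, Stat3 and Socs3 were thus above all other female libraries while Il6st was not, with Stat3 and Socs3 by log2 fold changes of 1.16 ± 0.25 and 1.54 ± 0.32.

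Among 23 NF-κB components, 4 were above the range and 0 below it, against 5.55% and 3.64% of all genes. The list median was nevertheless -0.06, below the 0.02 of all genes. Nfkbia, the IκBα inhibitor that NF-κB itself induces, had 139, 141 and 148 CPM in the lot 6 female line, against 41.0, 64.0 and 79.7 CPM, a log2 fold change of 1.23 ± 0.12. Ikbkg, the scaffold of the IκB kinase, Tnfrsf1a, the main TNF receptor, and Traf2, its adaptor, differed by 0.95 ± 0.23, 1.14 ± 0.20 and 0.38 ± 0.11. Tnfaip3, another NF-κB-induced inhibitor, overlapped, with 4.87, 4.75 and 7.28 CPM in the lot 6 female line against 1.67, 2.99 and 5.45 CPM. Of 15 chemokine and adhesion genes, 3 lay above the range and 1 below it, against the same 5.55% and 3.64%. Ccl5, which attracts T cells and monocytes, had 9.88, 15.6 and 9.0 CPM in the lot 6 female line, against 0.155, 1.17 and 6.39 CPM, and Ccl9 had 12.9, 15.4 and 14.7 CPM, against 0, 1.64 and 5.38 CPM. Csf1, the growth factor of microglia and macrophages, had 177, 158 and 179 CPM, against 56.6, 75.2 and 158 CPM, and only just cleared the highest other library.

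Vcam1, an adhesion receptor for leukocytes and a known NF-κB target, went the other way. It had 8.08, 9.65 and 7.71 CPM in the lot 6 female line, against 14.9, 47.5 and 80.6 CPM in the others, a log2 fold change of -2.48 ± 0.20. MHC class I presentation was split. B2m, the invariant light chain, was above the range with 807, 933 and 745 CPM in the lot 6 female line, against 321, 539 and 722 CPM, and Tapbpl, a peptide editor, was above it at low level. Psme1 and Psme2, the proteasome activator subunits, were below it with log2 fold changes of -1.23 ± 0.15 and -0.75 ± 0.13, and both lie on chromosome 14. The heavy chains H2-K1 and H2-D1 overlapped, at log2 fold changes of 0.18 ± 0.28 and -0.04 ± 0.23.

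**Figure D3:**
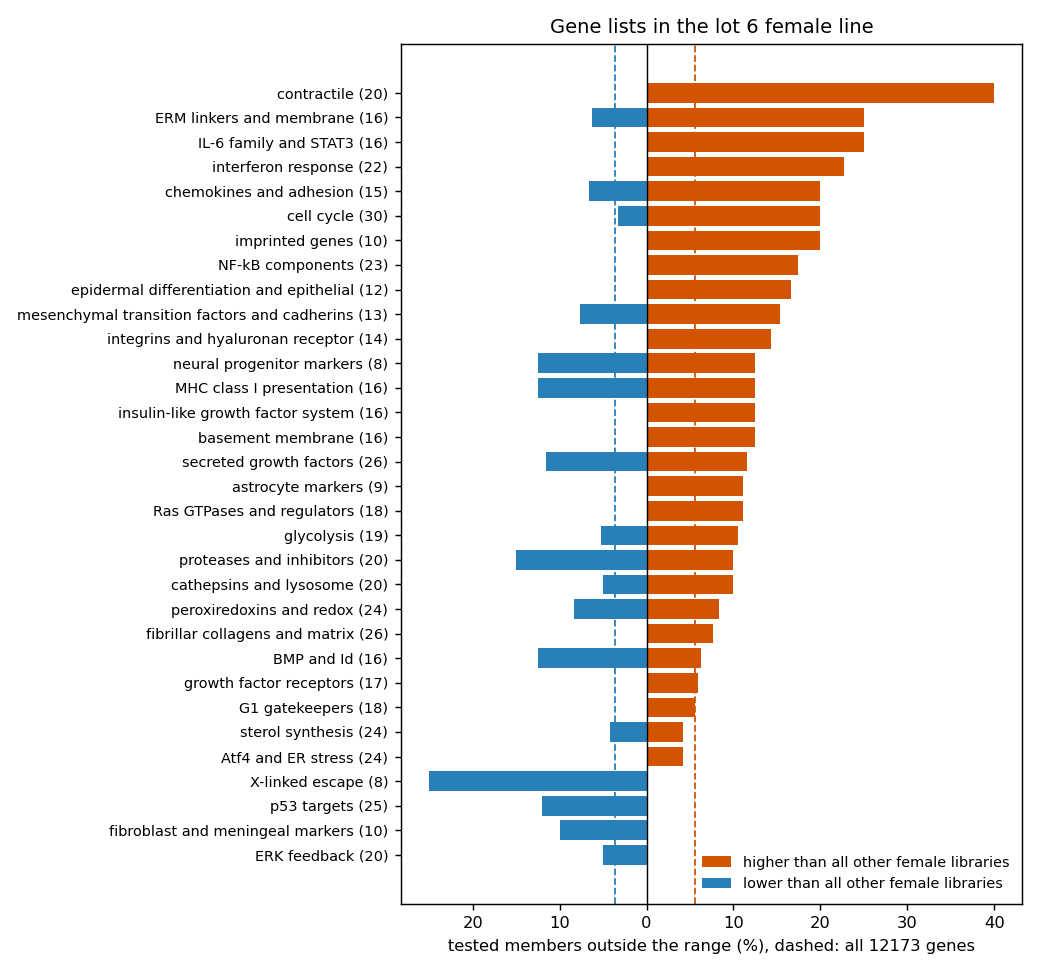
Share of the tested members of each gene list that lay above (orange) or below (blue) all other female libraries in the lot 6 female line, with the number of tested members in parentheses, for lists with at least 8. Dashed lines mark the shares over all genes, 5.55% and 3.64%. Lists made after the values had been seen are not drawn. The contractile list had 8 of 20 members above the range.

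Srebf1 and Fads3, of the 15 genes furthest below the range, act in lipid metabolism, and Scd1 and Slc25a1 were added to them after their values had been seen. Srebf1, the transcription factor that drives fatty acid synthesis, had 1.92, 1.30 and 0.286 CPM in the lot 6 female line, against 7.25, 13.1 and 21.3 CPM in the other female lines, a log2 fold change of -3.42 ± 0.36. The other line means averaged 13.1 ± 3.38 CPM (SD, n = 4 lines), and the gene lies at chromosome 11, 60199089 to 60222581. Fads3, of the fatty acid desaturase cluster, had 4.75, 3.60 and 2.86 CPM, against 25.6, 35.3 and 55.5 CPM, a log2 fold change of -3.30 ± 0.22. Scd1, the stearoyl-CoA desaturase, had 10.7, 5.62 and 9.28 CPM, against 15.4, 26.9 and 42.7 CPM. Slc25a1, the mitochondrial citrate carrier that exports carbon for lipid synthesis, had 7.05, 9.07 and 11.6 CPM, against 25.1, 40.1 and 65.7 CPM. The sterol synthesis list as a whole was not low. Of its 24 tested members 1 was below the range, Scd1, and 1 above, near the 3.64% and 5.55% of all genes. The list median was 0.20. The one above was Sqle, an enzyme of cholesterol synthesis, with 128, 144 and 114 CPM in the lot 6 female line, against 56.9, 76.7 and 112 CPM. Fasn, the fatty acid synthase, overlapped, with a log2 fold change of -0.71 ± 0.29.

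Other genes far below the range had varied roles. Lpar1, a receptor for lysophosphatidic acid, had 1.28, 1.15 and 0 CPM in the lot 6 female line, against 3.32, 9.76 and 13.7 CPM in the others. Gprc5a, an orphan receptor induced by retinoic acid, had 1.03, 0.864 and 0.857 CPM, against 7.69, 12.6 and 26.2 CPM. Qrfpr, a neuropeptide receptor, and Nrn1, the neurite-promoting protein neuritin, differed by log2 fold changes of -5.05 ± 0.61 and -5.00 ± 0.37. Fam110c, Npepl1, Mn1, Cgref1, Pcsk4 and Cdk18 were also among the 15 genes furthest below the range, with log2 fold changes between -5.44 ± 0.56 for Fam110c and -3.37 ± 0.37 for Cgref1. Fam110c was detected in lot 6 female replicate 2 alone of its line, and the fitted value was -9.04 without that library. Mn1, at -3.38 ± 0.45, was -4.30 without it.

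Of 26 secreted growth factors, 3 lay above the range and 3 below it, against 5.55% and 3.64% of all genes. Pdgfb, Fgf2 and Hbegf, ligands of receptor tyrosine kinases that feed Ras, were below. Hbegf was the abundant one, with 483, 393 and 408 CPM in the lot 6 female line, against 532, 662 and 1161 CPM in the others, while Fgf2 had 0.257, 1.87 and 1.28 CPM, against 2.78, 6.01 and 11.4 CPM. Gdf15, Angpt1 and Bmp4 were above, and Bmp4 had 43.2, 67.7 and 56.7 CPM in the lot 6 female line, against 7.13, 26.1 and 41.9 CPM. Chrdl1, a secreted antagonist of BMPs, was above as well, with 11.0, 15.1 and 15.3 CPM, against 0, 0 and 1.18 CPM. Another antagonist, Grem1, was below with 0, 0 and 0.428 CPM, against 1.93, 5.00 and 11.9 CPM, as was Id4, a target of BMP signalling. The receptor Fgfr1 had 49.9, 48.4 and 48.4 CPM in the lot 6 female line, against 18.5, 26.4 and 45.1 CPM.

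Genes that report on Ras and p53 output were examined because the genotype acts on both. Of 25 tested p53 targets, 0 were above the range and 3 below it, against 5.55% and 3.64% of all genes. The list median log2 fold change was -0.18. Below the range were Plk2, Dda1 and Perp, a membrane protein of desmosomes. Plk2, a polo-like kinase, had 20.8, 12.7 and 18 CPM in the lot 6 female line, against 29.6, 49.0 and 118 CPM in the others. Of 20 ERK feedback genes, 1 lay below the range, Phlda1, and none above it, counts near the 3.64% and 5.55% of all genes, and the list median was 0.17. Dusp5, an ERK phosphatase, overlapped at -1.21 ± 0.26, and Spry1, a feedback inhibitor of receptor signalling, overlapped at 1.88 ± 0.38. Of 18 tested Ras genes and regulators, 2 lay above the range and 0 below it, against 5.55% and 3.64% of all genes. The 2 were Rras and Rasgrp3, a Ras relative and an activator of Ras proteins.

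Redox, protease and retinoid genes showed both directions. Prdx6, a peroxidase with phospholipase activity, had 228, 209 and 214 CPM in the lot 6 female line, against 483, 686 and 1089 CPM in the others, a log2 fold change of -1.63 ± 0.08. Gstm1, a glutathione transferase, was above the range with 704, 884 and 732 CPM, against 104, 168 and 470.1 CPM. Cst3, the cathepsin inhibitor cystatin C that astrocytes secrete, had 5080.0, 5308 and 4919 CPM in the lot 6 female line, against 625, 1015 and 2420.0 CPM. Mmp14, a membrane-bound collagenase, was below with 10.9, 14.4 and 10.00 CPM, against 24.2, 36.9 and 94.4 CPM, and Mmp3, a secreted stromelysin, was above with 22.4, 46.4 and 50.9 CPM, against 0, 1.18 and 21.5 CPM. The protease inhibitor Timp1 was below, with 1267, 1439 and 1540.0 CPM in the lot 6 female line, against 1547, 2367 and 6670.0 CPM. Crabp1, which binds retinoic acid in the cytoplasm, had 87.7, 115 and 81.3 CPM in the lot 6 female line, against 203, 618 and 2146 CPM, a log2 fold change of -2.96 ± 0.25.

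Cell cycle genes were higher in part. Of 30 tested members, 6 lay above the range and 1 below it, against 5.55% and 3.64% of all genes. The list median was 0.29. Those above were the mitotic genes Aurka, Bub1, Ube2c, Kif11, Ccnb1 and Cenpe. Aurka, a spindle kinase, had 149.8, 159 and 176 CPM in the lot 6 female line, against 32.1, 88.5 and 104 CPM in the others, and Ube2c, which marks mitotic proteins for degradation, had 824, 805 and 873 CPM, against 233, 502 and 612 CPM. The one below was Cdc6, which loads the replication helicase, with 21.6, 20.3 and 23.7 CPM in the lot 6 female line, against 27.8, 41.6 and 65.3 CPM. Cdkn2d, an inhibitor of Cdk4 and Cdk6, was above with 100, 126 and 133 CPM, against 26.8, 50.1 and 74.5 CPM. Of these genes Aurka, Bub1 and Ube2c lie on chromosome 2. Ribosomal protein genes, a list added after the values had been seen, had 14 of 80 members below the range and 0 above it. Over all genes, 3.64% lay below and 5.55% above. The ribosomal median was -0.34.

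Genes outside the range were not spread evenly over the chromosomes. Over well-expressed genes, meaning an average log2 CPM of 4 or more, those of chromosome 14 had a median log2 fold change of -0.79 in the lot 6 female line (155 genes), and 90.97% of them were below 0, against 52.02% over all such genes. In the lot 7, 8, 11 and 12 female lines, each set against its other 4, the chromosome 14 median was 0.00, 0.26, 0.24 and 0.26. Of the 407 tested genes of chromosome 14, 80 lay below the range in the lot 6 female line (19.66%, against 3.64% over all genes), which is 18.06% of all genes below it. Chromosome 14 supplied 1.56 to 1.57% of the counts in the lot 6 female libraries, against 2.18 to 2.77% in the other female libraries. The shift ran through the stretch that could be followed, from 20 to 80 Mb: all 6 bins of 10 Mb with at least 10 such genes had medians from -0.91 to -0.62. The parts of the chromosome before and after this stretch had too few such genes per bin. Against this, 8 genes of chromosome 14 were above the range, among them Otx2 and Bmp4.

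On chromosome 11 the median was -0.33 (428 genes) and all 12 bins were below 0. Of its 986 tested genes, 83 lay below the range (8.418%, against 3.64% over all genes). On chromosome 2 the median was 0.34 (434 genes) and all 16 bins were above 0. Of its 990 tested genes, 151 lay above the range (15.25%, against 5.55% over all genes), which is 22.34% of all genes above it. Chromosome 2 supplied 7.80 to 8.46% of the counts in the lot 6 female libraries, against 5.67 to 6.57% in the others. Chromosome 15 had a median of 0.21 with all 7 bins above 0. Bins beyond 0.4 in either direction numbered 15 of 193 in the lot 6 female line, 6 of them on chromosome 14, 4 on chromosome 11 and 5 on chromosome 2, against 1 in lot 8 and 0 in lots 7, 11 and 12. The chromosome medians of the other female lines lay between -0.23 and 0.26. Myl9, Cst3, B2m, Ube2c, Aurka and Cdh4, named above, lie on chromosome 2, and Osmr and Lifr on chromosome 15. Srebf1 lies on chromosome 11, and Psme1, Psme2 and Mmp14 on chromosome 14. The part that position has in their difference was not tested.

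**Figure D4:**
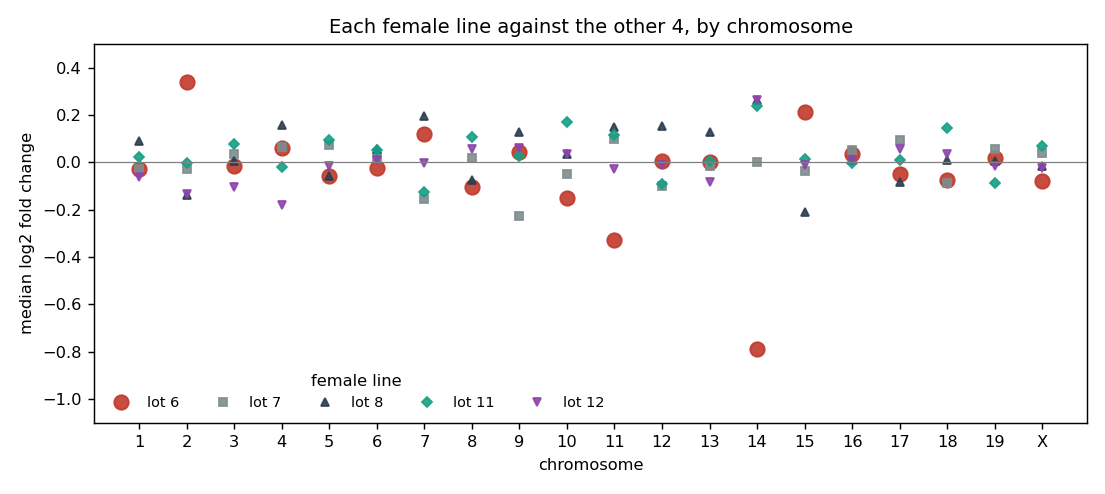
Median log2 fold change of each female line against the other 4 female lines, by chromosome, over genes whose average log2 CPM was 4 or more. The lot 6 female line (large red circles) reaches -0.79 on chromosome 14, -0.33 on chromosome 11 and 0.34 on chromosome 2, while the other lines stay between -0.23 and 0.26.

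On the X chromosome the median was -0.08. Xist, the RNA that coats and silences 1 X chromosome in female cells, had 0.641, 0.576 and 0 CPM in the lot 6 female line, against 0.182, 6.10 and 7.65 CPM as lowest, median and highest in the other female lines. This is 9 counts in the 3 lot 6 female libraries, and a low library of lot 8 overlapped them. Genes that escape this silencing and so are expressed from both X chromosomes had 2 of 8 tested members below the range and 0 above. Over all genes, 3.64% lay below and 5.55% above. The median of the escape list was -0.71. Eif2s3x, a translation initiation factor, had 12.6, 13.8 and 10.1 CPM in the lot 6 female line, against 16.0, 20.6 and 26.9 CPM in the others. In the lot 6 male line it had 14.1, 13.4 and 14.3 CPM. Pbdc1 had 197, 173 and 199.5 CPM in the lot 6 female line, against 226, 329 and 356 CPM in the others, and 199, 219 and 214 CPM in the lot 6 male line. The lot 6 female levels of both genes were thus close to those of the male line from the same litter. Both were picked because they lay below the female range, and the escape genes inside the range were not compared with this male line. Transcripts of 4 Y-linked genes numbered 2 to 4 per lot 6 female library, against 0 to 9 in the other female libraries and 159 to 242 in the lot 6 male libraries.

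The 1119 genes outside the female range were chosen by their levels in the female libraries, although the gene filter and the scaling used all 36 libraries. Levels in the male libraries did not enter the range rule, so the contrast of the lot 6 male line with the lot 7, 8, 11 and 12 male lines can be tested over these genes. The genes named below with male p-values were in part picked by those p-values or after their values had been seen, so they are the more extreme ones. By edgeR's quasi-likelihood test with Benjamini-Hochberg adjustment over all genes, 612 genes were higher (5.03%) and 365 were lower (3%) in the lot 6 male line. Scaling by library totals alone turned this split round, to 412 higher and 592 lower, and moved the median of all genes to -0.12, against -0.01 under TMM. Without the lot 8 lines 567 were lower, without lot 6 male replicate 1 there were 329 higher and 183 lower, and without replicate 2 there were 328 and 224. By the range rule, 172 genes were above (1.41%) and 78 below (0.641%) all other male libraries. Of the 676 genes above the female range, 84 were higher in the lot 6 male line (12.43%) and 28 were lower (4.142%). Of the 443 genes below the female range, 31 were lower in the male line (6.998%) and 53 were higher (11.96%). Among genes inside the female range, 4.297% were higher and 2.768% lower in the male line. In all, 115 of the 1119 genes passed in the same direction in both lot 6 lines, 81 passed in the opposite direction, and 923 did not pass in the male line, in which 977 of all genes passed in either direction (8.03%). Without lot 6 male replicate 1 the same and opposite counts were 65 and 48 genes, and without replicate 2 they were 75 and 41. With the libraries of each line summed, 0 of them passed by edgeR, with 565 of all genes at an unadjusted p under 0.05.

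Of 7 tested small interferon-induced membrane proteins, the list made after values had been seen, 5 passed upward in the lot 6 male line. Of the 22 tested members of the interferon list, 2 of which it shares, 4 passed upward, against 5.03% of all genes, and the list median was -0.38 in the male line. Ifitm3 had 461, 434 and 426 CPM in the lot 6 male line, against 23.3, 76.0 and 285 CPM as lowest, median and highest in the other male lines (log2 fold change 2.43 ± 0.17, edgeR adjusted p = 4.07e-13). Ifitm1 had 12.8, 14 and 21.8 CPM in the lot 6 male line, against 0.138, 1.08 and 8.14 CPM (log2 fold change 3.75 ± 0.43, edgeR adjusted p = 7.43e-08). Ifi27 and Ifi27l2a also passed upward, with edgeR adjusted p = 2.93e-05 and 6.75e-04. Isg15, Ifit3, Rtp4 and Usp18 did not pass in the male line, with log2 fold changes of -0.19 ± 0.39, -1.04 ± 0.75, 0.62 ± 0.57 and 0.71 ± 1.13.

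Scd1 was low in both lot 6 lines. It had 4.62, 5.66 and 1.64 CPM in the lot 6 male line, against 19.8, 31.1 and 39.2 CPM in the other male lines (log2 fold change -3.00 ± 0.29, edgeR adjusted p = 2.48e-09). Ddit4l, an inhibitor of mTORC1 signalling, was high in both, with 22.8, 16.3 and 11.1 CPM in the lot 6 male line, against 0.285, 2.7 and 11.3 CPM (edgeR adjusted p = 4.05e-07), and 39.8, 42.9 and 34.0 CPM in the lot 6 female line. Cbr2, a carbonyl reductase, and Lamtor3, a scaffold of the lysosomal mTORC1 platform, passed upward in the male line as well, at log2 fold changes of 1.97 ± 0.24 and 1.35 ± 0.13. Otx2 passed upward there (log2 fold change 2.59 ± 0.56, edgeR adjusted p = 0.00191), although its 1.29, 3.01 and 5.67 CPM overlapped the 0, 0.211 and 13.8 CPM of the other male lines.

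Other genes moved apart between the lines of this litter. Crabp1, below the range in the lot 6 female line, had 3004, 3450.0 and 2552 CPM in the lot 6 male line, against 262, 675 and 1229 CPM in the other male lines (log2 fold change 2.27 ± 0.17, edgeR adjusted p = 2.96e-12). Ezr, above the range in the female line, had 2.04, 3.18 and 1.34 CPM in the lot 6 male line, against 2.31, 12.3 and 74.0 CPM (log2 fold change -2.54 ± 0.34, edgeR adjusted p = 1.36e-06). Igfbp2, an insulin-like growth factor binding protein, had 246, 259 and 233 CPM in the lot 6 female line, against 0.715, 10.5 and 138 CPM in the other female lines. In the lot 6 male line it had 2.04, 2.48 and 3.88 CPM, against 1.26, 25.5 and 122 CPM in the other male lines (log2 fold change -2.96 ± 0.34, edgeR adjusted p = 9.48e-08). Tmem176b, an ion channel of immune cells, had 4.44, 5.66 and 9.11 CPM in the lot 6 male line, against 7.26, 65.3 and 136 CPM (log2 fold change -2.70 ± 0.34, edgeR adjusted p = 4.72e-07), and 295, 275 and 272 CPM in the lot 6 female line.

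Of the 30 genes furthest outside the female range, 23 did not pass in the male line. Epas1 had 0.925, 0 and 0.299 CPM in the lot 6 male line, against 0.144, 0.415 and 2.95 CPM in the other male lines, and Cdh4 had 0 counts in all 3 lot 6 male libraries. Cnn1 and Myl9 overlapped too: Myl9 had 159.8, 178 and 330.1 CPM in the lot 6 male line, against 38.6, 113 and 1333 CPM (log2 fold change 0.03 ± 0.22, edgeR adjusted p = 0.967). Acta2 passed upward at a log2 fold change of 0.54 ± 0.12 (edgeR adjusted p = 0.00154), and Tagln and Cnn3 passed downward. Chromosome 14 genes had a median of 0.15 in the lot 6 male line, and chromosomes 11 and 2 had medians of 0.07 and 0.02, or -0.03 and -0.08 when scaled by library totals alone. Chromosome 15 was high in both lot 6 lines, with a median of 0.32 in the male line, or 0.22 by library totals, and 0.21 in the female line. Chromosome 10 went opposite ways, with a median of 0.34 in the lot 6 male line, or 0.23 by library totals, and -0.15 in the female line.

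**Figure D5:**
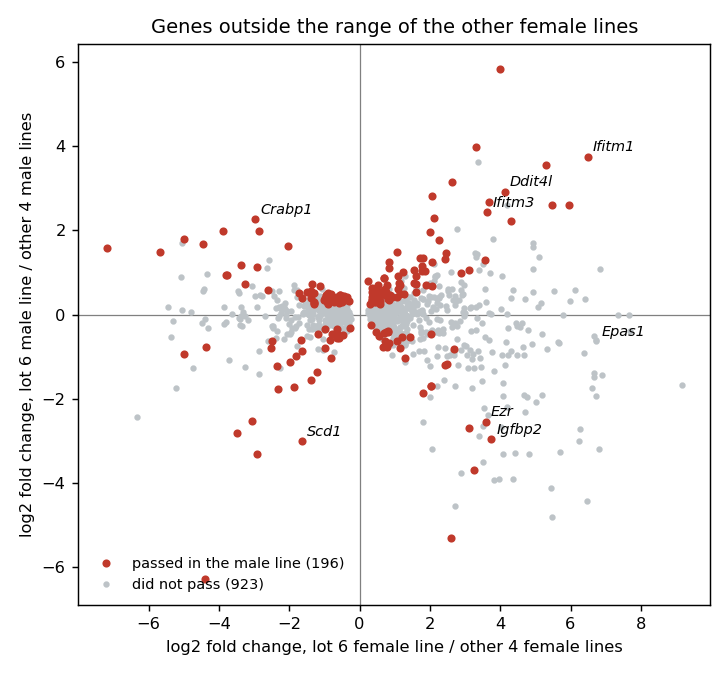
Log2 fold change of the lot 6 female line against the other 4 female lines (x axis) and of the lot 6 male line against the other 4 male lines (y axis), for the 1119 genes outside the female range. Red points are the 196 that passed edgeR's test in the male line, of which 115 share the direction, and grey points are the 923 that did not pass.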

How the data were processed

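BRB-seq of polyadenylated RNA had been done on 36 libraries of 10 lines, which the labels assign to lot, sex and replicate. The table the authors deposited gives unnormalised counts for each Ensembl gene, all of them whole. Tools listed in the submitters' processing notes are Subread 2.0.2, STAR 2.7.6a and cutadapt 2.10, with GRCm38 as the build. Whether molecular identifiers were collapsed is not given in the sources used here. Of 46078 gene identifiers, 45229 were matched to GENCODE release M21, and the others held 0.0295% of the counts.

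Counts were analysed with edgeR 4.0.16 and DESeq2 1.42.0 in R 4.3.3. After edgeR's expression filter by line and TMM scaling, a quasi-likelihood model was fitted to all 36 libraries with 1 coefficient per line, and the lot 6 coefficient was set against the equal-weight mean of the 4 other lines of its sex. Benjamini-Hochberg adjustment ran over all genes tested, and 0.05 was the threshold. Gaps use log2 CPM with a prior count of 2. The method was tested on simulated data. Pairs of libraries of a line differed beyond sampling noise, and 0 pairs were identical.

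The members and gene lists were chosen with earlier results of these data known. The genes named are Nf1, Trp53 and Xist, then the 15 protein-coding genes with the largest gap in each direction, given an average log2 CPM of 3 or more in the line or lines where they were high. To these were added up to 4 members of each list by gap, and the 5 genes of smallest p in the male line in each direction. Some genes this rule names are not reported here. Further genes were chosen after their values were seen: other list members outside the range, other patterning factors and Ifitm or Ifi27 relatives, Hif1a, Tmem176b, Ddit4l, Slc25a1, Il6st, Gja1, Nes, Gfap, H2-K1, H2-D1 and Col1a1. Same-numbered female libraries had residual correlations of -0.0946 to 0.29 over 33 pairs, with 8 over 0.1, among them all 3 pairs of replicate 4. Not every pair exceeded 0.1, so replicate numbers were not treated as pairs. Alternatives were other scalings and filters, DESeq2, thinned counts, line sums, a replicate block, and leaving out each library, each other lot, or all replicate 4 libraries, the last of which was chosen after seeing the data. Upstream sequences are from the RefSeq table of GRCm38.p6.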

Additional observations from a re-analysis of the deposited data

Results flagged for a closer look

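Within lines of 4 libraries, single libraries that stood apart from the other 3 were looked for among 30 of the named genes and the library measures, over 99 sets of values, and 6 were found. Chance alone flags about 1 in 20 such sets, and several of these values are near the detection floor. None of the 3 lot 6 female libraries could be tested, as the rule needs 4. In the lot 8 female line, Cdh4 was 0.364 CPM in replicate 3 against 0 in the other 3, and Zic4 was 0.238 CPM in replicate 1 against 0. Otx2 was 1.31 CPM in replicate 2 of that line, against 0 to 0.182 CPM. These 3 values are below all lot 6 female libraries. The share of mitochondrial mRNA in replicate 4 of the lot 8 female line was 0.324%, against 0.608 to 0.641%. The replicate 4 libraries of the other lines that have one were low as well: the 3 female ones held 0.315 to 0.349% and the 3 male ones 0.251 to 0.336%, against 0.520 to 0.770% in the other 15 female and 0.461 to 0.775% in the other 15 male libraries. In the lot 11 female line, replicate 4 was lowest for Adm, at 2.33 CPM against 4.51 to 4.86 CPM, and for Gprc5a, at 8.53 CPM against 12.6 to 13.4 CPM.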

How the results depend on the processing

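With libraries as units, the counts of genes outside the range, of edgeR calls in each line and of female-range genes that passed in the male line stayed within 1.5 times of the values above under both other scalings, both filters, thinning, DESeq2 and the omission of all replicate 4 libraries, except that 592 genes were lower in the male line under library totals, against 365. DESeq2 placed 1644 genes higher and 1634 lower in the lot 6 female line. Summing the libraries of each line left 2 genes higher (Epas1 and Tmem35a) and 0 lower by edgeR, with 1453 at an unadjusted p under 0.05, and in the male line 0 genes were higher and 0 lower, female-range genes included, with 565 of all genes at an unadjusted p under 0.05. That setting has 1 line against 4. Over line means in place of libraries, 3293 genes were above and 3174 below the range, and at least 2-fold beyond the nearest library, 99 were above and 39 below. Without the lot 7 lines 745 genes were below the range, without the lot 12 lines 695, and without the lot 8 lines 123 genes passed oppositely in the male line and 567 of all genes were lower there. The cause was not tested.

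Leaving out each of the 18 female libraries gave 1192 to 1735 genes higher and 1065 to 1605 lower by edgeR, and 685 to 904 above and 446 to 642 below the range. Male libraries share the filter and scaling, so leaving them out moved these female counts too. Without lot 12 male replicate 1, 1753 genes were higher, and without replicate 2 of that line 654 were above the range. Without lot 7 male replicate 1, 442 were below it. Over all 36 omissions, 65 to 125 genes passed in the same and 41 to 107 in the opposite direction in the male line. There, 328 to 635 of all genes were higher and 183 to 419 lower. The lowest male counts came without lot 6 male replicate 1 (65 same, 48 opposite) and without lot 6 male replicate 2 (75 same, 41 opposite). With a replicate block, edgeR placed 1795 genes higher and 1558 lower in the lot 6 female line, and 119 and 91 genes passed in the same and the opposite direction in the male line. Replicate numbers were not treated as pairs: 5 of 30 same-numbered female pairs of replicates 1 to 3 exceeded a correlation of 0.1, and 1 of the 12 with lot 6. All 3 female pairs and all 3 male pairs of replicate 4 exceeded it, at 0.224 to 0.29 and 0.156 to 0.322.

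For the 30 genes with the largest gaps and Nf1, Trp53 and Xist, 0 fold changes reversed sign under any setting in which they were followed. They were not followed when a single male library was left out. Sizes moved: leaving out 1 female library changed 7 of 33 by over 1.5-fold. Among them were Fam110c (-9.04 to -4.85), Nf1 (to -2.49 from -1.62), Mn1 (to -4.30 from -3.38), Tmem35a (to 7.26 from 6.26), Zic4 (to 7.70 from 6.66) and Cdh4 (to 9.80 from 9.16). Cnn1 was 3.48 without the lot 8 lines. The median of all genes was 0.02 under both TMM and DESeq2-type scaling and 0.08 under library totals, which moved the glycolysis list's median to 0.03. At these depths 3 counts correspond to about 0.4 CPM or more in a library, so differences among genes near that level were not detectable.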
